A study of Mus musculus with 9 samples.

Results

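Insulin-like growth factor (IGF) signalling was followed through 8 genes: the ligand gene *Igf1*, its receptor gene *Igf1r*, and the binding protein genes *Igfbp2*, *Igfbp3*, *Igfbp4*, *Igfbp5*, *Igfbp6* and *Igfbp7*. The genes were chosen by symbol, and every probe that the array annotation gives to one of these symbols was used. This gave 12 of 25697 probes, for 8 of 18120 gene symbols. *Igf1*, *Igfbp2*, *Igfbp4* and *Igfbp7* had 2 probes each, and the other genes had 1. At E10.5 the 3 tissues differed most in *Igfbp7*, *Igfbp2* and *Igfbp3*, and all of the called differences in these genes placed OV or periotic tissue below the rest of the embryo or, for *Igfbp7*, OV below both.

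IGF1 is a secreted growth factor that acts through the receptor tyrosine kinase IGF1R, which signals through insulin receptor substrates to PI3-kinase and AKT and through the RAS and MAP kinase route. IGFBP2 to IGFBP6 are secreted carriers that bind IGFs with high affinity, and depending on the context they hold the ligand away from the receptor or deliver it. IGFBP7 binds IGFs weakly and is known from blood vessels, where it is a product of the endothelium, and loss of *Igf1* in mice is known to disturb the growth and neural maturation of the inner ear.

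CD-1 mouse embryos at E10.5 (the embryonic day) were dissected into otic vesicles (OV), the tissue around them (periotic tissue, which holds mesenchyme and hindbrain) and what remained of the embryo (embryo-minus-otic). The labels name no genetic change and no treatment in any group, and each group was 3 pools of tissue from 3 separate litters. RNA from each of the 9 pools was hybridized to 1 array (Illumina MouseRef-8 v2.0, 1 colour). The comparison asks which transcripts set the OV apart from its neighbours and from the embryo at large.

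The signal of a probe on an array is an intensity, here quantile normalized over the 9 arrays. Where the detection p-value of a probe was under 0.01, it was taken to be above background there, and each array had between 11283 and 12160 such probes. Differences are between group means of log2 intensity, *q* is the p of limma after Benjamini-Hochberg adjustment over all 25697 probes, and a *q* under 0.05 is a call. The *q*-values measure the spread between pools. Summed intensity of 10 otic marker genes (16 probes) ran from 7873 to 8571 on the OV arrays, from 1298 to 1456 on the periotic arrays and from 1474 to 1559 on the embryo-minus-otic arrays, and of these genes *Hmx3* was not above background on any OV array. Neural tube markers were highest in periotic tissue, and summed heart markers ran from 7720 to 9095 in embryo-minus-otic against 429 to 816 in OV and 446 to 463 in periotic tissue. In bulk tissue a lower signal can come from fewer cells of a type or from less RNA per cell, and these cannot be told apart.

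*Igfbp2* and *Igfbp5* are neighbours on chromosome 1, with 0 protein-coding genes between them in the RefSeq gene table, and they gave unlike patterns over the tissues. Their upstream sequences are shown beside those of *Igfbp3* and *Igfbp7*, the other binding protein genes with a called difference, so that the 4 can be compared. Each is a stretch that ends just before the transcription start in RefSeq (GRCm38.p6), written 5′ to 3′ on the strand of the gene. Capitals mark GGGCGG or CCGCCC, the letters of a GC box on either strand, and TATAA or TTATA. These letters overlapped nowhere.
Igfbp2, first of 2 starts, chr1:72824330-72824479, plus strand: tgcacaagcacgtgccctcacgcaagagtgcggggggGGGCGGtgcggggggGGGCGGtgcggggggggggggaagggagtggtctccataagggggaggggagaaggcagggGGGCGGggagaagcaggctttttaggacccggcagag
Igfbp5, chr1:72874866-72875015, minus strand: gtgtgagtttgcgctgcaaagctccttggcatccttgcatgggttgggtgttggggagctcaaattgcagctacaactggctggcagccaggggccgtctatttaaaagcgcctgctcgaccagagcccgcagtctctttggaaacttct
Igfbp3, chr11:7213924-7214073, minus strand: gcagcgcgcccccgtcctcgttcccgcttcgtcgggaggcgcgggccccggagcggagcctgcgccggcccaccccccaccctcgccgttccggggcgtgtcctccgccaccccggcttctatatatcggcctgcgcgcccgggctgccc
Igfbp7, chr5:77408046-77408195, minus strand: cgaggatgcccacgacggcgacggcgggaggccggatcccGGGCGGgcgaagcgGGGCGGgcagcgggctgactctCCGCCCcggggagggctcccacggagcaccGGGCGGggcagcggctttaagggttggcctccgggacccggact
On either strand, GGGCGG was found 3 times before the first start of *Igfbp2* and 4 times before *Igfbp7*. Neither it nor TATAA was found before *Igfbp3* or *Igfbp5*. The second start of *Igfbp2* had neither, and a GC content of 54.00%. Of the other members, *Igf1r* held GGGCGG 2 times, *Igfbp4* held TATAA 1 time, and *Igfbp6* held the other-strand form TTATA 1 time. Over all 32851 windows of the same length, 28.62% held GGGCGG and 14.15% held TATAA on either strand. The GC content was 72.00% for *Igfbp2* (first start), 55.33% for *Igfbp5*, 78.67% for *Igfbp3* and 78.00% for *Igfbp7*, against a median of 54% over all windows. A match of letters describes the window and does not show a bound site.

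Of the 12 member probes, 8 were above background on all 9 arrays: those of *Igf1r*, *Igfbp3* and *Igfbp5*, both of *Igfbp2*, both of *Igfbp4* and the first of *Igf1*. The first *Igfbp7* probe was above background on every periotic and embryo-minus-otic array but on 1 of the 3 OV arrays. The second *Igf1* probe was above background on 1 OV array and on no other. The *Igfbp6* probe and the second *Igfbp7* probe were not above background on any array.

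**Figure D1:**
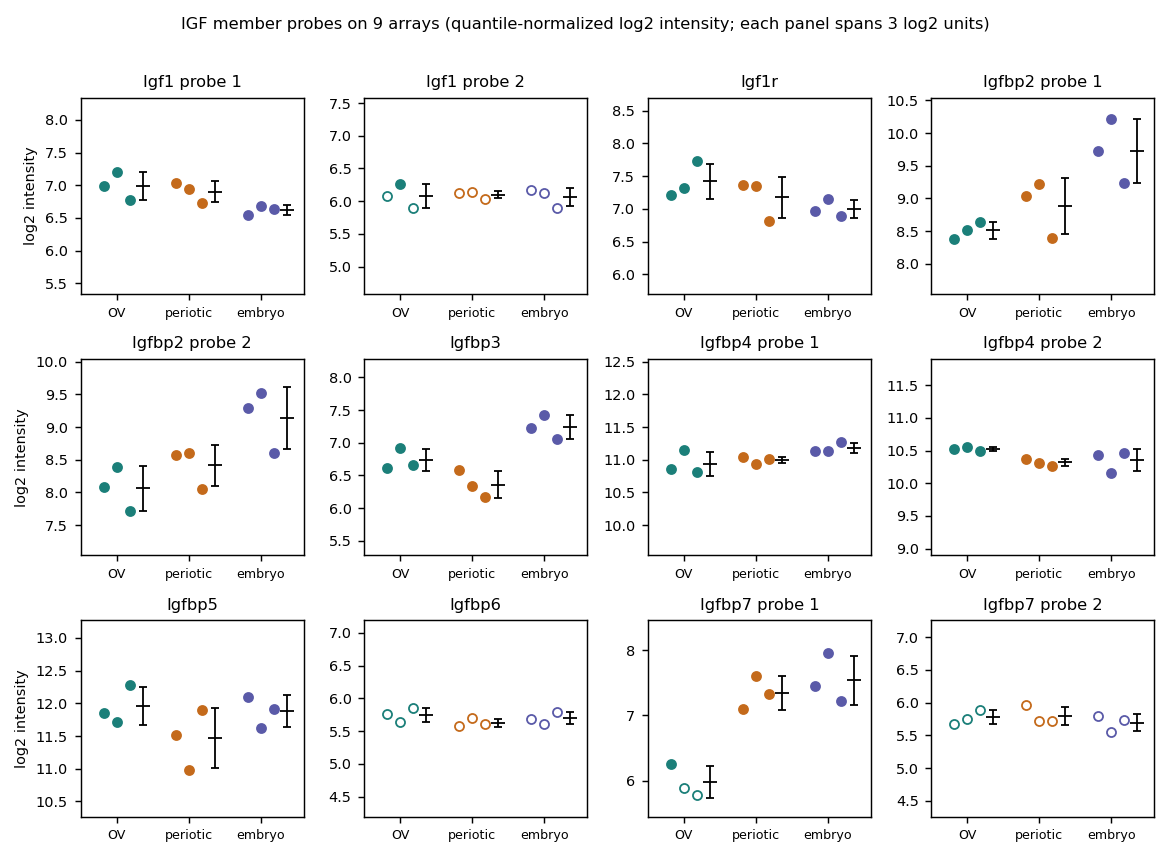
Normalized log2 intensity (vertical axis) of the 12 member probes on each array, with 3 points per tissue in the order of replicate number and the mean ± SD to their right in black. Filled points were above background and open points were not, and every panel spans the same 3 log2 units around its own centre. The first *Igfbp7* probe is lowest in OV and both *Igfbp2* probes are highest in embryo-minus-otic, while *Igfbp6* and the second *Igfbp7* probe stay below background throughout.

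In OV against periotic tissue, 1 of the 12 member probes was called, the first of *Igfbp7*, and it was lower in OV. Over all probes 10.2% were called in this comparison, 5.07% higher and 5.15% lower in OV. In OV against embryo-minus-otic, 5 member probes were called, 1 higher (*Igf1*) and 4 lower (both of *Igfbp2*, *Igfbp3* and *Igfbp7*), against 11.4% of all probes, 5.89% higher and 5.51% lower. In periotic tissue against embryo-minus-otic, 2 were called, both lower in periotic tissue (*Igfbp2* and *Igfbp3*), against 5.81% of all probes, 2.86% higher and 2.95% lower. In at least 1 comparison 5 of the 12 were called, against 16.3% of all probes. Leaving out 1 array moved the first count from 1 to 2 (periotic replicate 1 or 3), the second from 5 to 3 (OV replicate 1 or embryo-minus-otic replicate 2) and the last from 2 to 1 (periotic replicate 1 or 3, or embryo-minus-otic replicate 1 or 2). Under other normalizations the second was 2 or 3. With replicate number added to the model as a block, the first was 4 and the last 3. The 2 comparisons with OV share the OV arrays, and those with embryo-minus-otic share its arrays.

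The median log2 difference of the 12 probes was 0.035 for OV against periotic tissue, 0.033 for OV against embryo-minus-otic and -0.13 for periotic tissue against embryo-minus-otic, and that of all probes was under 0.01 in size in each. The arrays of the 2 tissues did not overlap for 3 of the 12 probes in OV against periotic tissue (25.1% of all probes), for 7 in OV against embryo-minus-otic (24.9%) and for 4 in periotic tissue against embryo-minus-otic (19.8%).

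**Figure D2:**
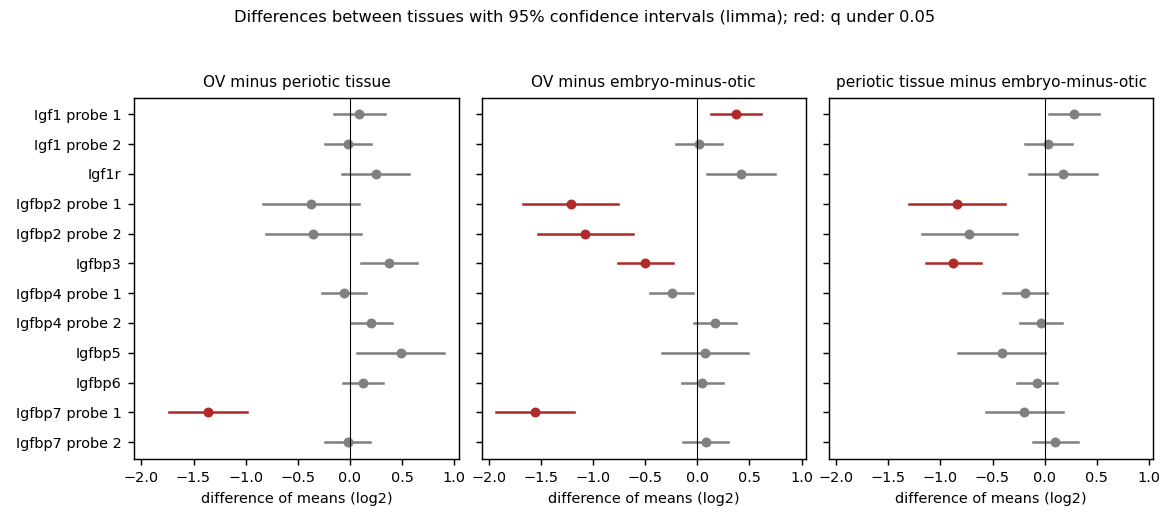
Difference of group means in log2 units (horizontal axis) with its 95% confidence interval for the 12 member probes in the 3 comparisons, in red where *q* was under 0.05. The *Igfbp7* difference is the largest in both comparisons with OV, and the *Igfbp2* differences grow from OV against periotic tissue to OV against embryo-minus-otic.

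*Igf1*, the ligand, was measured by 1 probe annotated to transcript variant 1 and 1 annotated to transcript variant 2, both placed on chromosome 10 by the array annotation. The variant 1 probe read 127, 148 and 109.7 on the OV arrays, 131, 124 and 106 on the periotic arrays and 93.0, 103 and 99.9 on the embryo-minus-otic arrays. Every OV and periotic array lay above every embryo-minus-otic array, and OV and periotic arrays overlapped. The log2 means were 6.99 ± 0.21, 6.90 ± 0.16 and 6.62 ± 0.07 (SD, n = 3 arrays each). OV was higher than embryo-minus-otic by 0.37 (SE 0.11, *q* = 0.0477), a fold Δ of 1.29. This call was narrow, and it was lost in 11 of 15 other settings, among them each of the 3 other normalizations (*q* from 0.0677 to 0.778) and 7 of the 9 that left out 1 array, all but OV replicate 3 and periotic replicate 3 (*q* from 0.0563 to 0.226). Periotic tissue differed from embryo-minus-otic by 0.28 (*q* = 0.215) and from OV by less than its error (OV minus periotic 0.09, 95% confidence interval -0.15 to 0.33, *q* = 0.788).

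The variant 2 probe of *Igf1* read between 59.7 and 76.5 on all 9 arrays, and no difference between tissues exceeded 0.04 in size (*q* of at least 0.931). As it was above background on 1 array alone, it gives no level for that transcript. Over the 9 arrays the 2 *Igf1* probes correlated at a Pearson r of 0.475.

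*Igf1r* encodes the receptor that binds IGF1 at the cell surface. Its probe read 149, 159.8 and 212 in OV, 164, 164 and 112 in periotic tissue and, in embryo-minus-otic, 125, 142 and 118. The OV arrays all lay above the embryo-minus-otic arrays, and the periotic arrays spanned both, with replicate 3 the lowest of all 9. The order of the means was OV, periotic tissue, embryo-minus-otic, and no pair passed the threshold. OV minus embryo-minus-otic was 0.42 (95% confidence interval 0.10 to 0.74, *q* = 0.100), and without periotic replicate 3, which enters this comparison through the normalization and the shared spread, it was 0.41 (*q* = 0.0399). OV minus periotic tissue was 0.25 (*q* = 0.454) and periotic tissue minus embryo-minus-otic was 0.17 (*q* = 0.682).

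*Igfbp2*, whose product is an IGF carrier of the embryo and of cerebrospinal fluid, was lowest in OV and highest in embryo-minus-otic on both of its probes. The first probe read 332, 365 and 401 in OV, 524, 597 and 337 in periotic tissue and, in embryo-minus-otic, 845, 1187 and 605. All embryo-minus-otic arrays lay above all others, and OV and periotic arrays overlapped, with periotic replicate 3 as low as OV. The second probe read 272, 336 and 209 on the OV arrays, 382, 390.5 and 266 on the periotic arrays and 627, 733 and 389 on the embryo-minus-otic arrays. On this probe OV again lay below embryo-minus-otic throughout, while embryo-minus-otic replicate 3 fell just under the highest periotic array.

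OV was lower than embryo-minus-otic by 1.21 log2 units on the first *Igfbp2* probe (SE 0.21, *q* = 0.00102), so that embryo-minus-otic held 2.32 times the OV signal. On the second probe the difference was -1.07 (SE 0.21, *q* = 0.00288), or 2.11 times. The first was called in all 15 other settings, with differences between -1.46 and -0.97, and the second in all but median normalization (*q* = 0.0731). Periotic tissue was lower than embryo-minus-otic by 0.84 on the first probe (SE 0.21, *q* = 0.0288). That call was lost in 7 of 15 settings: with neqc or median normalization, in a fit of the 2 groups alone, and without periotic replicate 1 (*q* = 0.0610), periotic replicate 3 (*q* = 0.116), embryo-minus-otic replicate 1 (*q* = 0.0727) or embryo-minus-otic replicate 2 (*q* = 0.105). The second probe gave -0.72 and missed the threshold (*q* = 0.0647), but it was called in 4 of 15 other settings. These were the replicate block (*q* = 0.000125), no normalization (*q* = 0.0457), and the fits without embryo-minus-otic replicate 3 (*q* = 0.00592) or without OV replicate 3 (*q* = 0.0485). OV and periotic tissue were next to each other in the order, and their difference did not pass the threshold on either probe (-0.37, *q* = 0.403 and -0.35, *q* = 0.446). With the replicate block the second probe was called there (*q* = 0.0283).

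The *Igfbp2* probes also varied more than most within a tissue. Their within-group SD was 0.38 log2 units on each, larger than on 99.1% (first probe) and 99.0% (second probe) of the probes above background, whose median SD was 0.14. The 2 probes correlated at a Pearson r of 0.922 over the 9 arrays, which share tissue and array differences. In embryo-minus-otic and in periotic tissue, replicate 2 was the highest and replicate 3 the lowest of the tissue on both probes. The second probe had the same order in OV, but on the first probe OV replicate 3 was the highest of that tissue.

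*Igfbp3* encodes the main IGF carrier of adult serum. Its probe read 98.4, 122 and 102 in OV, 96.0, 80.8 and 71.7 in periotic tissue and, in embryo-minus-otic, 150.01, 172 and 133. The arrays of the 3 tissues did not overlap, with embryo-minus-otic highest, OV between and periotic tissue lowest. Periotic tissue was lower than embryo-minus-otic by 0.88 (SE 0.12, *q* = 0.000276), so that embryo-minus-otic held 1.84 times the periotic signal on this scale. This call was kept in all 15 other settings (-1.40 to -0.77, or up to 2.64 times). The periotic values lay near background, as the lowest signals above background on those arrays were 74.2, 73.2 and 70.4. The size of this fold is therefore not well fixed. OV was lower than embryo-minus-otic by 0.50 (SE 0.12, *q* = 0.0145), a call lost with each of the 3 other normalizations and without OV replicate 1 (*q* = 0.0708), OV replicate 3 (*q* = 0.0621) or embryo-minus-otic replicate 2 (*q* = 0.0646). OV minus periotic tissue was 0.38 (95% confidence interval 0.11 to 0.64) and missed the threshold (*q* = 0.0762), although without periotic replicate 1 it was 0.49 (*q* = 0.0306). It was also called with the replicate block.

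*Igfbp4*, an IGF carrier that proteases of the pappalysin family cleave, gave a strong signal everywhere and no called difference. Its first probe read 1862, 2260.4 and 1789 in OV, 2097, 1967 and 2065 in periotic tissue and, in embryo-minus-otic, 2258, 2255 and 2465. The second read 1471, 1506 and 1440.3 on the OV arrays, 1325, 1269 and 1235 on the periotic arrays and 1381, 1144 and 1413 on the embryo-minus-otic arrays. The first probe had its lowest arrays in OV, and on the second every OV array lay above every other array, so the probes did not give the tissues in the same order. OV minus embryo-minus-otic was -0.25 on the first probe (*q* = 0.142) and 0.17 on the second (*q* = 0.332). Without OV replicate 2 the first reached -0.35 (*q* = 0.0348). OV minus periotic tissue was -0.06 (*q* = 0.853) and 0.21 (*q* = 0.242), and periotic tissue minus embryo-minus-otic was -0.19 (*q* = 0.391) and -0.03 (*q* = 0.928). The Pearson r of the 2 probes over 9 arrays was -0.133.

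*Igfbp5*, a carrier that also binds extracellular matrix, lies next to *Igfbp2* but did not share its order of tissues. Its probe read 3713, 3378 and 4970.4 in OV, 2935, 2028 and 3811 in periotic tissue and, in embryo-minus-otic, 4401, 3154 and 3859.8. The 3 tissues overlapped, with periotic replicate 2 the lowest array and OV replicate 3 the highest. OV minus periotic tissue was 0.49 (95% confidence interval 0.07 to 0.90, *q* = 0.162), and without periotic replicate 3 it was 0.70 (*q* = 0.0258). It was also called with the replicate block (*q* = 0.0137). OV minus embryo-minus-otic was 0.07 (*q* = 0.899) and periotic tissue minus embryo-minus-otic was -0.41 (*q* = 0.315). Within tissues its SD was 0.34, larger than on 98.3% of the probes above background, and its Pearson r with the first *Igfbp2* probe was -0.196 over the 9 arrays.

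*Igfbp6*, a carrier with a preference for IGF2, read between 47.6 and 57.7 over all 9 arrays and was never above background. It was not detectable here in any of the 3 tissues, and no fold is given.

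*Igfbp7* showed the largest differences among the members. Its first probe read 76.6, 59.3 and 55.3 in OV, 136, 195 and 160.2 in periotic tissue and, in embryo-minus-otic, 174, 247 and 149. Every OV array lay below every other array, and periotic and embryo-minus-otic arrays overlapped. The log2 means were 5.98 ± 0.25, 7.34 ± 0.26 and 7.54 ± 0.37 (SD, n = 3 arrays each). OV was lower than periotic tissue by 1.36 (SE 0.17, *q* = 4.52e-05), so that periotic tissue held 2.57 times the OV signal on this scale. OV was lower than embryo-minus-otic by 1.56 (SE 0.17, *q* = 1.12e-05), or 2.94 times. Both were called in all 15 other settings, and with neqc, which subtracts an estimated background, they were -2.25 and -2.50, or 4.75 and 5.65 times. In OV the probe was above background on replicate 1 alone, so the OV mean rests mostly on signal near background and the size of these folds is not well fixed. Periotic tissue minus embryo-minus-otic was -0.20 (95% confidence interval -0.57 to 0.17, *q* = 0.688).

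The second *Igfbp7* probe read between 47.0 and 62.3 on all 9 arrays, never above background, and its differences were -0.02, 0.08 and 0.10 in the order of comparisons above. The *Igfbp7* result thus rests on 1 probe.

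**Figure D3:**
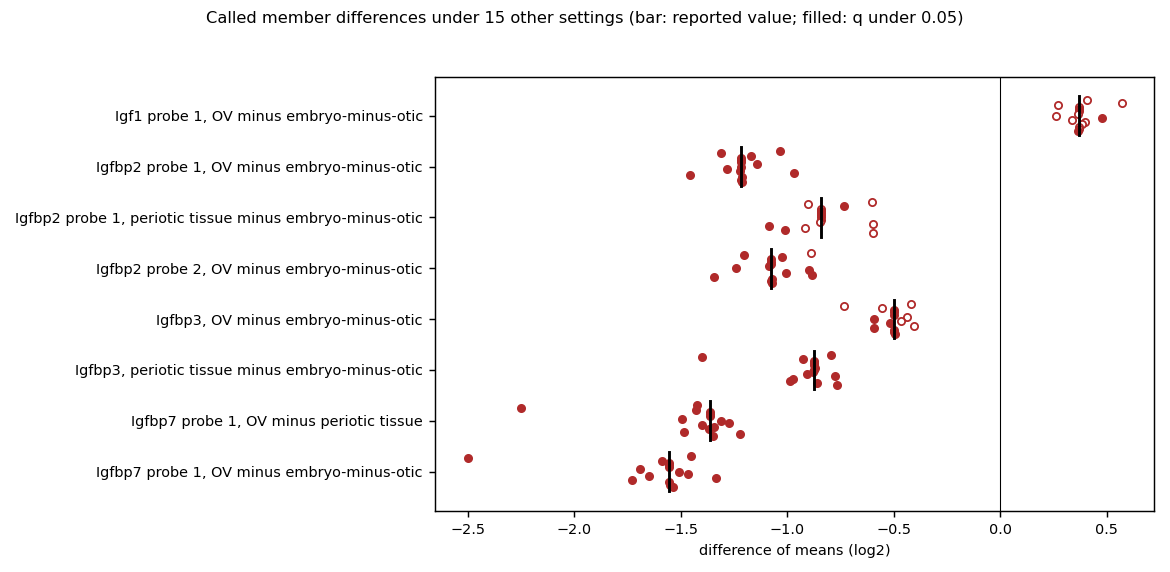
The 8 called member differences (black bars, log2 units on the horizontal axis) beside the same differences under the 15 other settings (points, filled where *q* was under 0.05). All points stay on the side of 0 of the reported value. All are filled for *Igfbp7*, for *Igfbp3* in periotic tissue against embryo-minus-otic and for the first *Igfbp2* probe in OV against embryo-minus-otic.

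Markers of other cell types differed between the dissected tissues in the same direction as several of these genes. Endothelial markers (8 genes found, 10 probes) summed to 1367 to 1604 in OV, 1945 to 2209 in periotic tissue and 2197 to 2361 in embryo-minus-otic, with 4 of 10 probes called lower in OV than in periotic tissue, 5 lower than in embryo-minus-otic and 0 called by limma between the other two tissues (1 at an unadjusted p under 0.05). Every endothelial gene was above background on at least 1 OV array, but *Kdr* was above background on no periotic array. Erythroid markers (8 genes, 9 probes) summed to 16505 to 40650, 64272 to 74822 and 85106 to 92077, with 9 of 9 probes lower in OV in both comparisons and 2 lower in periotic tissue than in embryo-minus-otic; *Hbb-b1* was not above background on any OV array. For *Igfbp7*, the tissue order of both lists by mean was that of the gene. The mesenchyme list and the liver and endoderm list, given below, had this order too.

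Mesenchyme markers (10 genes, 14 probes) summed to 1899 to 2123 in OV, 2113 to 2495 in periotic tissue and 3702 to 4207 in embryo-minus-otic. Of their probes, 12 of 14 were called lower in OV and 11 lower in periotic tissue than in embryo-minus-otic, and 3 lower in OV than in periotic tissue. *Tcf21* was above background on no OV or periotic array, and *Col1a1* on no OV array. *Igfbp2* also had OV lowest and embryo-minus-otic highest by mean, an order that the endothelial, erythroid and liver and endoderm lists shared. *Igfbp3* had OV and periotic tissue below embryo-minus-otic too, but with periotic tissue lowest, unlike the mesenchyme list. Summed heart markers (8 probes) also had periotic tissue lowest by mean (454, against 559 in OV and 8344 in embryo-minus-otic). That order came from OV replicate 1 (816), as OV replicates 2 and 3 (433 and 429) lay below every periotic array (446 to 463). In OV and periotic tissue 0 of the heart probes were above background on all arrays, and 4 and 7 were on none. Liver and endoderm markers (10 probes) summed to 591 to 616, 619 to 670 and 1026 to 1182, and in OV and periotic tissue 0 of these probes were above background on all arrays and 7 and 6 were on none. The part of these cell types in the *Igfbp2*, *Igfbp3* and *Igfbp7* differences was not tested.

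**Figure D4:**
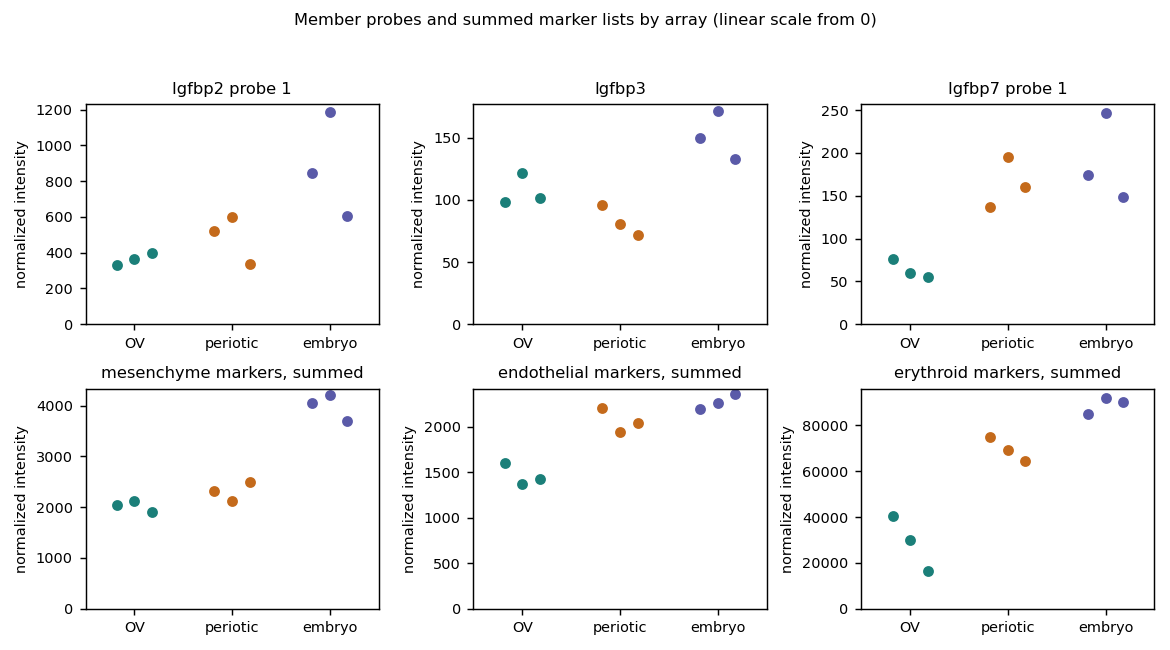
Normalized intensity on a linear axis from 0 for the *Igfbp2* first probe, *Igfbp3* and the *Igfbp7* first probe (top) and for the summed mesenchyme, endothelial and erythroid markers (bottom), with 1 point per array in each tissue. The OV arrays are lowest for *Igfbp7*, endothelial and erythroid markers, and embryo-minus-otic arrays are highest for *Igfbp2*, *Igfbp3*, mesenchyme and erythroid markers.

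The study ranked otic specificity by OV fold Δ, the ratio of the OV mean to the higher of the other 2 tissue means. By this measure 0 of the 12 member probes were called higher in OV, in limma as in each of the 15 other settings, and 0 had an unadjusted p under 0.05. *Igf1r* had the highest OV fold Δ of the members, 1.19 (*q* = 0.454), at rank 1425 of 25697, followed by the second *Igfbp4* probe at 1.13 and rank 2125. The lowest were the first *Igfbp7* probe at 0.340 and rank 25498, from an OV mean with 1 of 3 arrays above background (0.177 with neqc), and the *Igfbp2* probes at 0.431 and 0.475, ranks 25381 and 25311. *Igfbp3* was at 0.707 and rank 24452.

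The probes of other genes whose pattern over the 9 arrays was most like that of a called member were found by Pearson r among the 11847 or 11848 probes that were above background throughout 1 tissue or more. For *Igfbp7* these were *Gm691* (r = 0.992) and *Ccdc3* (r = 0.982), and for *Igfbp3* *P4ha2* (0.982), a collagen prolyl hydroxylase subunit, and *Cdca2* (0.980). For the first *Igfbp2* probe they were *Mlf2* (0.965) and *Fbxo31* (0.958), and for the second *Zfp524* (0.972) and *Lmna* (0.952), which encodes nuclear lamins. For the first *Igf1* probe they were *Amigo3* (0.930) and *Ttyh2* (0.919). The arrays share tissue groups, so these values describe likeness over 9 points. The OV log2 means of *Gm691* (6.02) and *Ccdc3* (5.98) lay under the lowest signals above background on the OV arrays (6.17 to 6.24), as did that of the first *Igfbp7* probe. Their likeness to *Igfbp7* thus rests in part on background signal in OV. The *Igfbp2* probes did not share their nearest genes.

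Other genes of the pathway were read from the same fit. Of 72 symbols listed, which include older names of the same gene, 61 were found, with 93 probes. Of these probes 57 were above background throughout 1 tissue or more, and 30 on no array. In OV against periotic tissue 15 were called higher and 4 lower in OV, against the 5.07% and 5.15% of all probes above. In OV against embryo-minus-otic 13 were higher and 8 lower (5.89% and 5.51% of all probes), and in periotic tissue against embryo-minus-otic 3 were higher and 7 lower (2.86% and 2.95%). The last count, 10 in both directions together, was 5 without periotic replicate 2 and 6 without embryo-minus-otic replicate 1. Their median differences were 0.019, 0.038 and -0.035 log2 units.

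Among ligands and receptors, *Igf2*, the other IGF ligand and an imprinted gene, had a lower signal than embryo-minus-otic in OV (-0.72, SE 0.09, *q* = 2.39e-05) and also in periotic tissue (-0.66, SE 0.09, *q* = 0.000129). Its arrays read 11691 to 12891 in OV, 12045 to 13510.4 in periotic tissue and 19324 to 21244 in embryo-minus-otic, and OV and periotic tissue overlapped (-0.06, SE 0.09, *q* = 0.812). *Igf2r*, the receptor that clears IGF2, was lower than in embryo-minus-otic in periotic tissue (-0.75, SE 0.12, *q* = 0.000926) and in OV (-0.42, SE 0.12, *q* = 0.0353) on 1 probe. Its other probe gave -0.54, SE 0.16, *q* = 0.0759 and -0.21, SE 0.16, *q* = 0.548. The probe of *Insr*, the insulin receptor, was not above background on any array.

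Adaptors and kinases had 51 probes for 30 genes, so some genes count more than 1 time. Of these probes 11 were higher and 2 lower in OV than in periotic tissue (5.07% and 5.15% of all probes). Against embryo-minus-otic, 10 were higher and 2 lower in OV (5.89% and 5.51% of all probes). *Pik3r1*, the p85α regulatory subunit of PI3-kinase, was higher in OV than in periotic tissue (0.99, SE 0.10, *q* = 3.43e-06) and embryo-minus-otic (0.87, SE 0.10, *q* = 1.38e-05). *Irs2*, an insulin receptor substrate, was higher in OV than in periotic tissue (0.98, SE 0.14, *q* = 0.000102), and *Gab1*, a docking protein, was higher than in embryo-minus-otic (0.87, SE 0.10, *q* = 2.37e-05). *Pik3r3*, another regulatory subunit, was higher in periotic tissue than in embryo-minus-otic (0.80, SE 0.10, *q* = 7.48e-05).

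In the growth hormone axis (12 probes), 1 probe was called higher and 0 lower in OV than in periotic tissue (5.07% and 5.15% of all probes). Against embryo-minus-otic, 1 was higher and 2 were lower in OV (5.89% and 5.51% of all probes). The higher probe in both was that of *Socs2*, a feedback inhibitor of growth hormone receptor signalling, which gave the largest difference of the whole list. *Socs2* is among the top-ranked OV probes in the paper and was known from earlier results of these data. Its arrays read 2691 to 3845 in OV, 544 to 600.2 in periotic tissue and 534 to 742 in embryo-minus-otic. OV lay above both without overlap, with a fold Δ of 5.49 against periotic tissue (2.46, SE 0.13, *q* = 3.36e-09) and 4.98 against embryo-minus-otic (2.32, SE 0.13, *q* = 7.78e-09). One *Jak2* probe, for the kinase bound to that receptor, was higher in periotic tissue than in embryo-minus-otic (0.47, SE 0.11, *q* = 0.0158).

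Among relatives of the binding proteins (13 probes), *Wisp1*, a CCN family matrix protein above background on 2 of the 3 OV arrays, was lower in OV (-1.03, SE 0.09, *q* = 1.31e-06) and in periotic tissue (-0.74, SE 0.09, *q* = 9.00e-05) than in embryo-minus-otic. *Igfbpl1*, a binding-protein-like gene, was lower in OV than in periotic tissue (-0.75, SE 0.13, *q* = 0.000938). *Esm1*, an endothelial proteoglycan with an IGFBP domain, was above background on no OV array, and its periotic and embryo-minus-otic signals were at least 1.26-fold (*q* = 1.58e-05) and at least 1.18-fold (*q* = 4.70e-05) higher than OV. These bounds set the brighter mean against, on each OV array, the higher of the probe's own value and the lowest signal above background. Among proteases and inhibitors of the binding proteins (6 probes), 1 was higher in OV in each of the comparisons with OV (5.07% and 5.89% of all probes). Of the 4 probes for the *Igf2* mRNA-binding proteins 0 were called in limma, and 1 had an unadjusted p under 0.05 in at least 1 comparison.

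**Figure D5:**
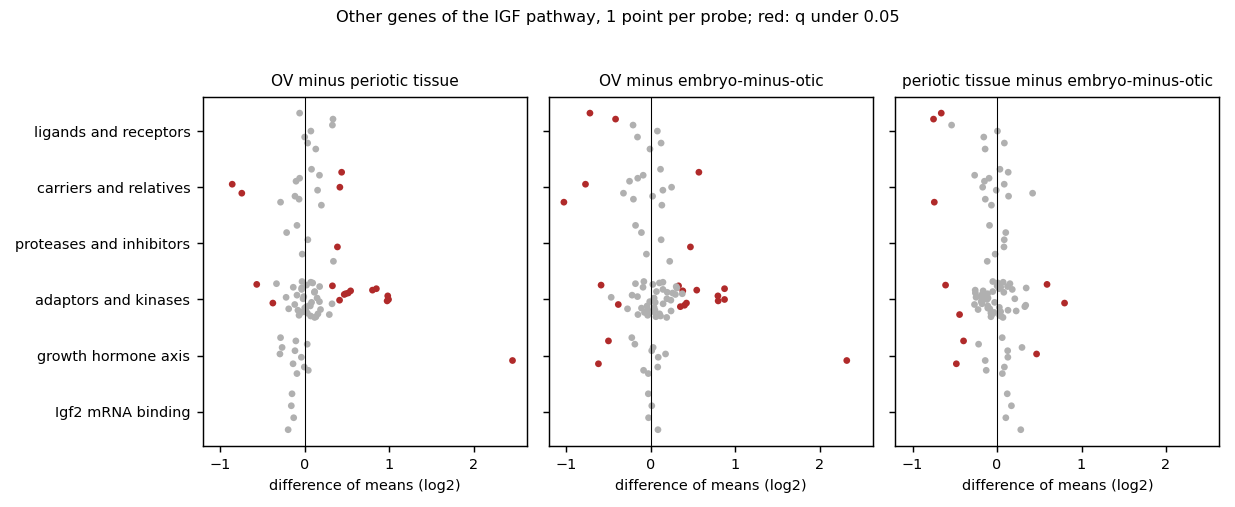
Difference of group means in log2 units (horizontal axis) for the 93 probes of other IGF pathway genes, grouped by role, with 1 point per probe and red where *q* was under 0.05. *Socs2*, in the growth hormone axis, lies alone beyond 2 log2 units in both comparisons with OV, and most called adaptors and kinases lie to the right of 0 there.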

How the data were processed

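RNA from 9 pools of E10.5 CD-1 tissue, 3 per group, was measured on Illumina MouseRef-8 v2.0 arrays, and each array was grouped by the tissue in its label. The authors deposited, per probe and array, an average signal, an intensity not normalized between arrays, and a detection p-value that ranks it against the negative controls. Whether background was subtracted, and the slide of each array, are not given in the sources used here. The lowest signal per array was 32.8 to 49.2, and 43.9% to 47.3% of probes were above background (detection p under 0.01). The number of arrays limits the precision.

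Signals were log2 transformed with a floor of 1, which changed 0 values, quantile normalized over these 9 arrays (the study used the same method with cochlear cell arrays added, not used here) and entered in 1 model of the 3 groups (limma 3.58.1, R 4.3.3) with empirical Bayes moderation. *q* is the Benjamini-Hochberg adjusted p over 25697 probes. Probes of a gene were kept apart, the steps were tested on simulated data, and no array pair held identical values. Alternatives were neqc (offset 16), median and no normalization, probes above background only, the compared groups only, a replicate block, each array left out, and detection p under 0.05.

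The members and all lists were chosen with earlier results of these data known. Every member probe is named. Of the other pathway genes, the 3 largest called differences per direction and comparison are named, besides *Igf2*, *Igf2r* and *Insr*. Not all genes that this rule covers are reported here. Upstream sequences and gene order came from RefSeq tables (GRCm38.p6), in which all 8 members were found. Probe sequences were not used here.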

Additional observations from a re-analysis of the deposited data

How the results depend on the processing

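Of 531 refits of single member differences over 15 settings, 472 kept direction and side of the threshold, 25 lost a call, 11 gained one and 23 changed sign, 0 of them of a called difference. Called member probes in OV against periotic tissue (1) numbered 4 with the replicate block and 1 to 2 when 1 array was left out. In OV against embryo-minus-otic (5) they numbered 3 with neqc, 2 with median normalization, 3 with no normalization and 3 to 6 when 1 array was left out. In periotic tissue against embryo-minus-otic (2) they numbered 1 with neqc, 1 with median normalization, 1 with the compared groups only, 3 with no normalization, 3 with the replicate block and 1 to 3 when 1 array was left out. With no normalization the called pathway probes fell from 19 to 9, from 21 to 10 and from 10 to 5 in these comparisons, and leaving out 1 array gave 15 to 21, 14 to 23 and 5 to 13. The count of member probes above background throughout 1 tissue or more was 9 at both detection thresholds.

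All sign changes were in differences that were not called. Without normalization they were those of the second *Igf1* probe (OV minus embryo-minus-otic -0.11, periotic minus embryo-minus-otic -0.091), the second *Igfbp4* probe (periotic minus embryo-minus-otic 0.097), *Igfbp6* (OV minus embryo-minus-otic -0.064) and the second *Igfbp7* probe (OV minus embryo-minus-otic -0.031, periotic minus embryo-minus-otic -0.027). With median normalization they were those of the *Igfbp4* probes (periotic minus embryo-minus-otic 0.036 and 0.23) and the second *Igfbp7* probe (OV minus periotic 0.0011). When 1 array was left out, differences that changed sign for at least 1 array ranged from -0.018 to 0.20 for the first *Igf1* probe, -0.16 to 0.0078 for the first *Igfbp4* probe, -0.11 to 0.072 for the second *Igf1* probe and -0.082 to 0.059 for the second *Igfbp7* probe in OV minus periotic tissue. They ranged from -0.073 to 0.11 for the second *Igf1* probe, -0.090 to 0.19 for *Igfbp5* and -0.0015 to 0.11 for *Igfbp6* in OV minus embryo-minus-otic. They ranged from -0.046 to 0.094 for the second *Igf1* probe, -0.13 to 0.022 for the second *Igfbp4* probe and -0.36 to 0.0099 for the first *Igfbp7* probe in periotic tissue minus embryo-minus-otic.

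The paper states that separate litters were divided into triplicate pools of each tissue, but not whether the replicate numbers mark shared litters. The main fit did not use these numbers. Same-numbered arrays deviated together at correlations of 0.0080 to 0.182 (9 pairs), and other pairs at -0.143 to 0.049 (18 pairs). Of the arrays, 9 of 9 correlated best with an array of their own number, a hint from the data that the labels do not state. With the replicate block, calls over all probes went from 2625 to 2790, from 2930 to 3221 and from 1493 to 1669. The block gained calls for the second *Igfbp2* probe in OV against periotic tissue (*q* = 0.0283) and in periotic tissue against embryo-minus-otic (*q* = 0.000125), and in OV against periotic tissue for *Igfbp3* (*q* = 0.0333) and *Igfbp5* (*q* = 0.0137). It changed no other member call. Median normalization moved the split of calls over all probes from 1513 higher and 1417 lower to 1472 and 670 in OV against embryo-minus-otic, and from 736 and 757 to 812 and 315 in periotic tissue against embryo-minus-otic. The cause of these changes was not tested. *Igfbp6*, the second *Igfbp7* probe and nearly all values of the second *Igf1* probe lay in the background, which limits what these arrays can show of them.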

Other observations

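The members did not vary as 1 group over the 9 arrays. The first *Igfbp7* probe correlated at a Pearson r of 0.739 with each *Igfbp2* probe and at 0.186 with *Igfbp3*, while *Igfbp3* correlated at 0.721 and 0.727 with the *Igfbp2* probes. The lowest value among all member pairs was -0.831, between the first *Igfbp7* probe and the second *Igfbp4* probe. These values come from 9 arrays in 3 tissues, which share their tissue differences, and carry no test. The neighbours *Igfbp2* and *Igfbp5* gave -0.196 on the first and -0.268 on the second *Igfbp2* probe. *Igfbp1*, the neighbour of *Igfbp3* on chromosome 11, was not above background on any array.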
